A study of Mus musculus with 15 samples.

Results

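Cadherins and the factors of the epithelial-mesenchymal transition (EMT) were followed in mouse embryonic stem cells (ESCs) that lost the pluripotency factor OCT4, the product of *Pou5f1*. The set holds 9 genes of the 48709 in the count tables. It was chosen by name: the cadherins *Cdh1*, *Cdh2* and *Cdh3*, the epithelial adhesion molecule *Epcam*, the filament gene *Vim*, and the transcription factors *Snai1*, *Snai2*, *Zeb1* and *Zeb2*. All 9 were measured in all 15 libraries of ribosomal-RNA-depleted total RNA, and a level is given in CPM, a gene's counts divided by the library total and scaled within each cell line.

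The 10 CreER libraries came from ESCs of mixed 129SV C57BL/6 strain with the genotype Oct4Fl/-; CAG CreER. Their only functional *Pou5f1* allele is floxed, and 500 nM 4-hydroxytamoxifen (4OHT) activates the Cre that removes it. They were untreated (0 h) or treated for 12, 18, 24 or 36 h, with 2 libraries at each time. The 5 O4AID libraries came from 129SV ESCs of the ZHBT line, which are Oct4-/- and carry a TetOFF Oct4 transgene, to which CAG Oct4AID and CAG Tir1 were added. In these cells doxycycline keeps the wild-type TetOFF Oct4 silent, and 500 µM of the auxin IAA triggers breakdown of the Oct4AID fusion protein. They were untreated or treated for 1.5, 6, 10 or 24 h, with 1 library at each time. Both lines grew on gelatin in N2B27 medium with PD03, Chiron and LIF. This medium, which inhibits MEK and GSK3, is given for both lines, controls included. For its qRT-PCR and western blot course of floxed cells, the study changed to serum medium with LIF when 4OHT was added. It does not say whether the cells for RNA sequencing were switched as well. The broadly active CAG promoter drives CreER, Oct4AID and Tir1, and each route of OCT4 loss was followed in a single engineered line. The labels do not say whether the 2 libraries of a CreER time came from separate cultures, so p-values measure the spread between these libraries, which may be technical.

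The libraries held 21.7 to 30.8 M counts in CreER cells and 40.5 to 48.7 M in O4AID cells. *Pou5f1* stood at 330 and 324 CPM in the CreER 0 h libraries and at 115 and 128 CPM at 36 h. In O4AID cells it stayed between 608 and 815 CPM, which is no check of the treatment, because IAA acts on the protein and not on the transgene's RNA. Markers of ESCs were present in every library, with a summed level of 10 genes between 1841 and 6461 CPM.

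Classical cadherins hold neighbouring cells together through calcium-dependent contacts between their outer parts, and catenins tie their inner parts to actin. *Cdh1* encodes E-cadherin, the adhesion molecule of epithelia and of ESC colonies. *Cdh2* encodes N-cadherin of neural and mesenchymal cells, and *Cdh3* encodes P-cadherin, named for the placenta. EMT is the programme in which epithelial cells give up *Cdh1* and *Epcam* and gain *Cdh2* and *Vim*. The zinc-finger repressors of the Snail (*Snai1*, *Snai2*) and Zeb (*Zeb1*, *Zeb2*) families act in it by binding E-box motifs in promoters such as that of *Cdh1*.

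RefSeq promoter windows (GRCm38.p6) were at hand for 4 of the 9 genes: *Epcam*, *Snai1*, *Vim* and *Zeb2*. The 250 bases before the RefSeq start are shown for *Epcam*, *Snai1* and *Vim*, because *Epcam* fell, and *Snai1* and *Vim* rose, in the CreER cells described below. The E-box CAGGTG, and CACCTG as its form on the other strand, is in capitals, since it is the element that Snail and Zeb proteins are known to bind.
Epcam (chr17:87635729-87635978, plus strand): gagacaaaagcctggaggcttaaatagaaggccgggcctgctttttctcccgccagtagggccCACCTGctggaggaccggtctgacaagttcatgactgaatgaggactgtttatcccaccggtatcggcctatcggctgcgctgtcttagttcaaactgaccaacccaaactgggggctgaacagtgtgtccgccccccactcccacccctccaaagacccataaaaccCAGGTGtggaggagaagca
Snai1 (chr2:167537945-167538194, plus strand): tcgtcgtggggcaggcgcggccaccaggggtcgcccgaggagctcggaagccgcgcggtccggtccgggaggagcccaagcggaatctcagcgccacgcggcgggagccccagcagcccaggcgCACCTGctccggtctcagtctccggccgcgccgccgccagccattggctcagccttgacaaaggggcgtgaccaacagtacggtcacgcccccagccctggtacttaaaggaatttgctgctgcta
Vim (chr2:13574061-13574310, plus strand): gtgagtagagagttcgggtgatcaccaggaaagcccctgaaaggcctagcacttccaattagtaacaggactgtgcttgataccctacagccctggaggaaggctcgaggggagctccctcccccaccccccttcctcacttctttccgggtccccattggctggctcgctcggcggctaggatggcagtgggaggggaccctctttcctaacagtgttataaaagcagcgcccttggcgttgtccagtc
The *Epcam* window held the E-box at 2 places, starting 187 and 19 bases before the start, the *Snai1* window held it at 1 place, starting 126 bases before it, and the *Vim* window held none. The RefSeq start behind the *Vim* window lies inside the Ensembl gene given below, so this window is not upstream of that gene's own start. In all, 2 of the 7 windows of these 4 genes held the E-box, with none in those of *Zeb2*. Over all 32851 windows, 17.2% held at least 1 such E-box. The octamer ATGCAAAT, which POU factors such as OCT4 recognise, or ATTTGCAT on the other strand, was in 1.6% of all windows and in none of the 7 windows of these 4 genes. A match of letters is a description and not a binding site.

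The genes lie on 5 chromosomes of GRCm38/mm10. *Cdh1* (ENSMUSG00000000303, chr8:106603351-106670246, plus strand) and *Cdh3* (ENSMUSG00000061048, chr8:106510891-106557297, plus strand) share chromosome 8. *Cdh2* (ENSMUSG00000024304, chr18:16588877-16809246, minus strand) and *Zeb1* (ENSMUSG00000024238, chr18:5591860-5775467, plus strand) lie on chromosome 18. *Vim* (ENSMUSG00000026728, chr2:13573927-13582826, plus strand), *Snai1* (ENSMUSG00000042821, chr2:167538195-167542814, plus strand) and *Zeb2* (ENSMUSG00000026872, chr2:44983632-45117395, minus strand) lie on chromosome 2. *Epcam* (ENSMUSG00000045394, chr17:87635979-87651106, plus strand) and *Snai2* (ENSMUSG00000022676, chr16:14705852-14709395, plus strand) lie on chromosomes 17 and 16. *Zeb1* shares 198 of its 10112 exonic bases with *Gm10125* and *Zeb2* shares 467 of its 19942 with *Zeb2os*, both on the opposite strand. Those partners held at most 15 and 1 counts in a library.

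The untreated lines differed in these genes before any loss of OCT4, which was read per length as RPKM, which divides a gene's reads by its exon length and by library size, scaled over all 15 libraries. In CreER cells at 0 h the order was *Cdh1* (157 and 154 RPKM), *Epcam* (105 and 100 RPKM), *Vim* (34.5 and 31.5 RPKM) and *Cdh3* (29.9 and 29.4 RPKM). *Cdh2* followed at 1.94 and 1.75 RPKM and *Zeb1* at 1.51 and 1.51 RPKM. *Snai1* stood at 1.04 and 0.81 RPKM, *Zeb2* at 0.20 and 0.21 RPKM, and *Snai2* at 0.08 and 0.08 RPKM. *Cdh1* and *Epcam* were thus the leading transcripts of the set, and the EMT transcription factors were at its foot.

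In the O4AID 0 h library *Cdh1* led as well, at 64.6 RPKM, but *Vim* came second at 20.8 RPKM, ahead of *Epcam* at 10.8 RPKM and *Zeb1* at 6.10 RPKM. *Cdh3* stood at 0.78 RPKM, *Snai2* at 0.37 RPKM, *Snai1* at 0.31 RPKM, *Cdh2* at 0.05 RPKM and *Zeb2* at 0.04 RPKM. Against the CreER mean, *Cdh2* was 38.9-fold lower, *Cdh3* 38.2-fold lower, *Epcam* 9.50-fold lower and *Zeb2* 5.50-fold lower, whereas *Snai2* was 4.61-fold and *Zeb1* 4.04-fold higher. *Cdh1*, *Vim* and *Snai1* were 2.40-fold, 1.58-fold and 3.04-fold lower. For *Cdh1*, *Cdh2*, *Cdh3*, *Epcam*, *Zeb1* and *Zeb2* no O4AID library reached the range of the 10 CreER libraries, and for *Vim*, *Snai1* and *Snai2* the ranges overlapped. The share of all genes with such a gap was not counted, so the gap is not read as particular to these genes.

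These differences have no test, since O4AID has 1 untreated library, and strain, construct and depth differ together with the line and cannot be told apart. Of 19861 genes on the autosomes and X with at least 10 counts in either untreated line, 47.7% differed by at least 2-fold and 12.3% by at least 10-fold. The 1067 genes of chromosome 8, where *Cdh1* and *Cdh3* lie, had a median log2 difference (O4AID minus CreER) of -0.55, against 0.05 over all genes. Its part in the lower *Cdh1* and *Cdh3* levels was not tested. *Zeb1* and *Zeb2* stood in a ratio of 7.50 and 7.23 in the CreER 0 h libraries and of 164 in the O4AID 0 h library.

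**Figure D1:**
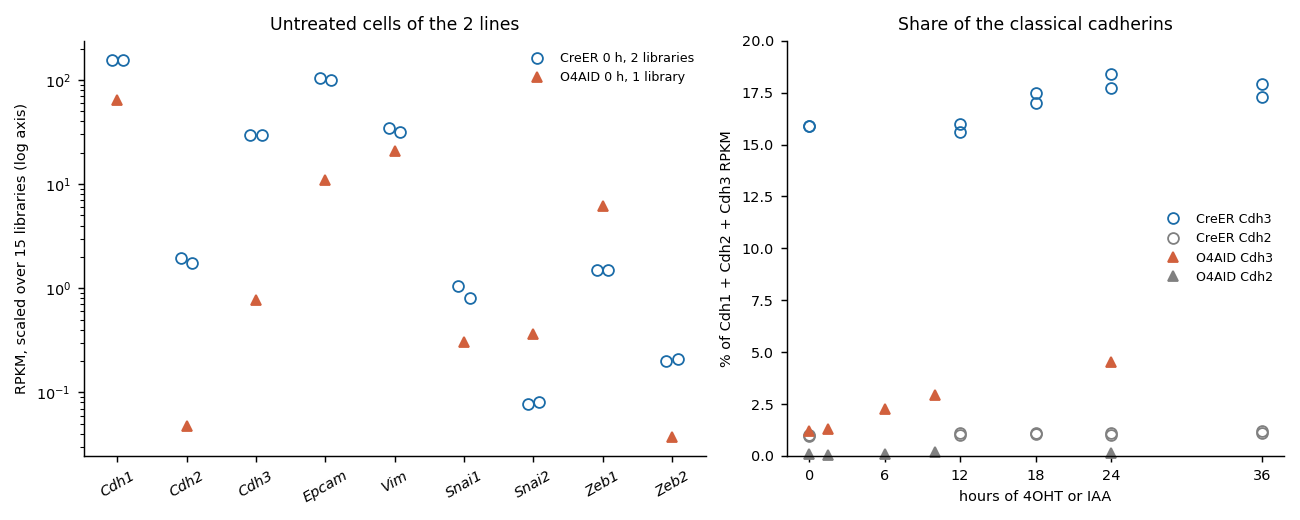
Left, RPKM of the 9 genes (log axis) in the 2 untreated CreER libraries (open circles) and the untreated O4AID library (triangles); right, percent of the summed Cdh1, Cdh2 and Cdh3 RPKM held by Cdh3 (coloured) and Cdh2 (grey) in each library against hours of treatment. Cdh2 and Cdh3 show the widest gap between lines, and the Cdh3 share climbs in the O4AID libraries from 1.18% at 0 h to 4.52% at 24 h.

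The first question was which of these genes followed the removal of the floxed *Pou5f1* allele. *Cdh3*, *Cdh2*, *Vim* and *Snai1* rose and *Epcam* fell by 36 h of 4OHT, from 0.89-fold for *Epcam* to 1.78-fold for *Snai1*, whereas *Cdh1*, *Zeb1* and *Zeb2* did not pass the test. By edgeR's quasi-likelihood test with Benjamini-Hochberg adjustment over 18969 genes, 0 of the 9 members were called at 12 h, beside 0.395% of all genes. At 12 h only *Vim* had an unadjusted p under 0.05, so the count at that level was 1, and DESeq2 called 0. The members called numbered 1 at 18 h, 4 at 24 h and 6 at 36 h, beside 8.52%, 21.6% and 36.6% of all genes. The median log2 fold change of the 9 members was 0.26 at 36 h, and that of all genes was 0.01. All 9 passed the filter on low counts, but *Snai2* passed only through its treated libraries, so its calls at 24 and 36 h are no support for a rise. With at least 10 counts in every library *Snai2* was not tested, and 3 members were called at 24 h and 5 at 36 h.

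**Figure D2:**
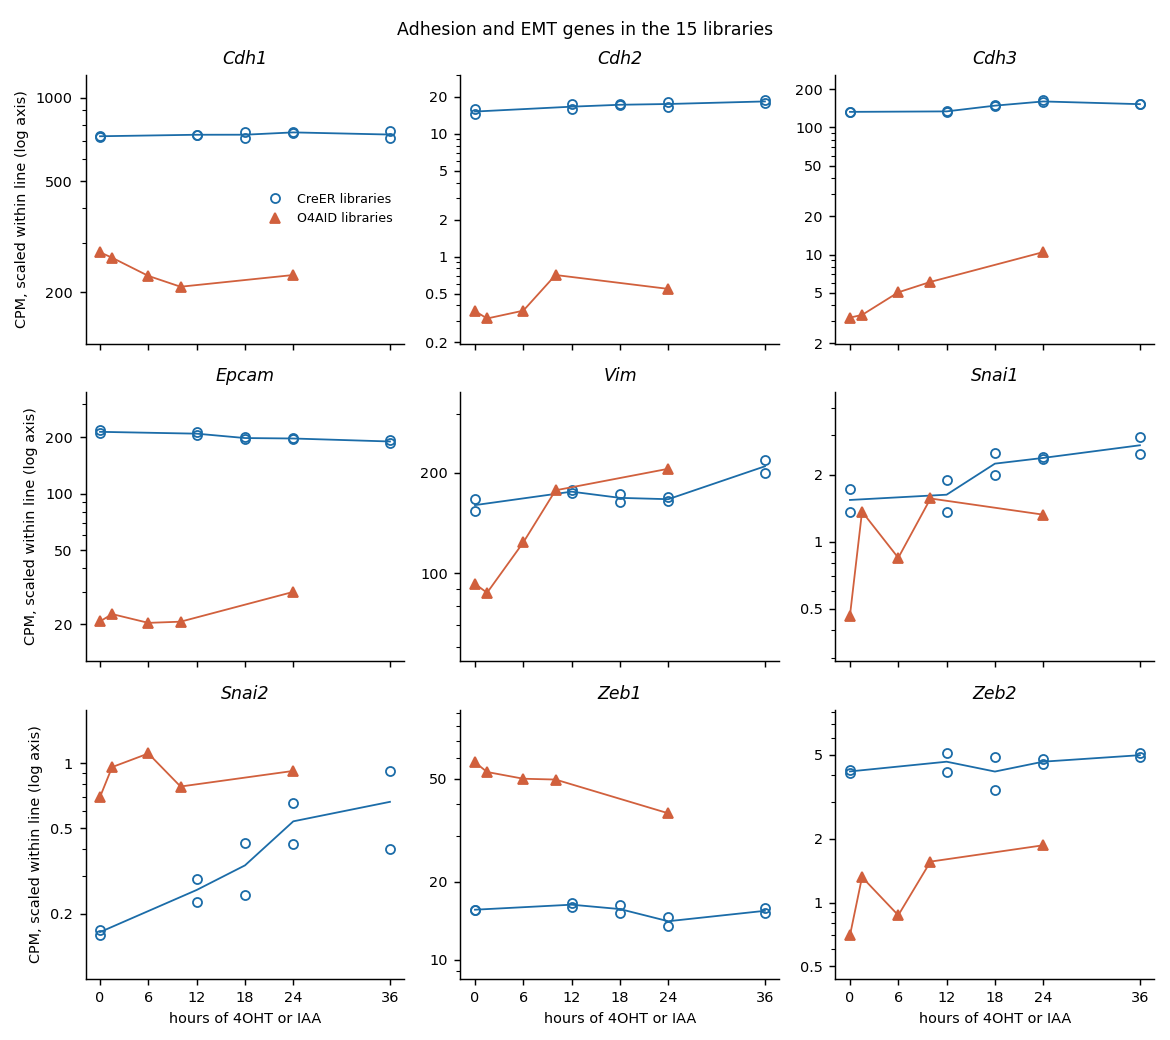
CPM scaled within each line (log axis) for the 9 genes against hours of treatment, with CreER libraries as open circles, O4AID libraries as triangles and lines through the mean at each time. CreER levels of Cdh1 stay between 716 and 756 CPM, while the O4AID levels of Cdh3, Vim, Snai1 and Zeb2 are higher at 24 h than at 0 h.

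Among the cadherins, *Cdh1* was level. Its CreER libraries stood at 730 and 722 CPM at 0 h, 734 and 736 CPM at 12 h, 755 and 716 CPM at 18 h, 745 and 754 CPM at 24 h, and 756 and 717 CPM at 36 h. The 36 h libraries lay on both sides of the 0 h libraries. The log2 fold change at 36 h was 0.02 ± 0.04 (SE, n = 2 per time), with a 95% interval of -0.06 to 0.10 and an adjusted p of 0.724 in edgeR.

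*Cdh3* stood at 133 and 132 CPM at 0 h, 135 and 132 CPM at 12 h, 150 and 147 CPM at 18 h, 163 and 157 CPM at 24 h, and 153 and 152 CPM at 36 h. From 18 h on both libraries of each time lay above both untreated libraries, and the highest level was at 24 h. The log2 fold change was 0.16 ± 0.04 (SE) at 18 h, 0.27 ± 0.04 at 24 h and 0.20 ± 0.04 at 36 h, with edgeR adjusted p of 0.0115, 1.42e-05 and 0.000296. With total-count scaling the 18 h and 36 h calls were missed (adjusted p of 0.0509 and 0.0516), at log2 fold changes of 0.15 and 0.12. The 18 h call was also lost without 0 h replicate 2 or without either 18 h library (adjusted p of 0.0685, 0.139 and 0.0624), at 0.151 to 0.175.

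*Cdh2* was lower in level and moved more gradually. It stood at 16.0 and 14.4 CPM at 0 h, 15.9 and 17.4 CPM at 12 h, 17.5 and 17.1 CPM at 18 h, 18.4 and 16.7 CPM at 24 h, and 17.7 and 19.0 CPM at 36 h. The libraries from 18 h on lay above those at 0 h, but successive times overlapped. The 36 h change of *Cdh2* passed the test, at 0.27 ± 0.08 (SE) on the log2 scale and an edgeR adjusted p of 0.0119. This 36 h call was lost in DESeq2 (0.26, adjusted p of 0.0855), with total-count scaling (0.19, adjusted p of 0.0794), without 0 h replicate 2 (0.20, adjusted p of 0.147) and without 36 h replicate 2 (0.22, adjusted p of 0.105). At 24 h it had 0.21 ± 0.08 and missed the threshold (adjusted p of 0.0684), but passed it with total-count scaling (0.23, adjusted p of 0.0456) and without 0 h replicate 1 (0.28, adjusted p of 0.0413).

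Per length, the make-up of the 3 cadherins changed little in CreER cells. *Cdh1* held 83.1% and 83.2% of their summed RPKM at 0 h and 81.7% and 80.9% at 36 h. *Cdh3* held 15.9% in both untreated libraries, 18.4% and 17.7% at 24 h, and 17.3% and 17.9% at 36 h. *Cdh2* never held more than 1.22%. The log2 ratio of *Cdh2* to *Cdh1* was -6.33 and -6.46 at 0 h and -6.23 and -6.05 at 36 h.

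*Epcam* encodes an epithelial cell adhesion molecule that is also a common surface marker of ESCs. It stood at 219 and 210 CPM at 0 h, 205 and 213 CPM at 12 h, 197 and 200 CPM at 18 h, 195 and 199 CPM at 24 h, and 193 and 187 CPM at 36 h. From 18 h on both libraries of each time lay below both untreated libraries. The log2 fold change was -0.12 ± 0.04 (SE) at 24 h and -0.17 ± 0.04 at 36 h, with edgeR adjusted p of 0.0383 and 0.00165. The 24 h call was lost with total-count scaling (-0.10, adjusted p of 0.149), in DESeq2 (-0.13, adjusted p of 0.0505), with no filter (-0.12, adjusted p of 0.0561) and with only the 4 libraries compared (-0.12, adjusted p of 0.0571). It was also lost without 0 h replicate 1, 12 h replicate 1, either 18 h library or either 24 h library, at log2 fold changes of -0.135 to -0.09 and adjusted p of 0.0517 to 0.205. The 36 h call held in DESeq2 (adjusted p of 0.00149) and whichever library was left out.

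*Vim*, the intermediate filament protein of mesenchymal cells, was already abundant in untreated cells. It stood at 167 and 153 CPM at 0 h, 174 and 177 CPM at 12 h, 163 and 173 CPM at 18 h, 165 and 169 CPM at 24 h, and 200.1 and 218 CPM at 36 h. Only the 36 h libraries lay above all others. The log2 fold change at 36 h was 0.39 ± 0.05 (SE), a 1.31-fold rise, with an edgeR adjusted p of 2.28e-07. Between successive times, *Vim* from 24 to 36 h was the only member called, at a log2 fold change of 0.33 ± 0.05 (adjusted p of 1.65e-05). In that step 14.7% of all genes were called. No member was called from 12 to 18 h or from 18 to 24 h, beside 1.55% and 1.35% of all genes, by edgeR or by DESeq2. In each of these steps *Cdh3* alone had an unadjusted p under 0.05 and brought the count to 1.

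The Snail genes were low. *Snai1*, the first of them, stood at 1.72 and 1.35 CPM at 0 h, 1.89 and 1.36 CPM at 12 h, 2.49 and 1.99 CPM at 18 h, 2.40 and 2.35 CPM at 24 h, and 2.93 and 2.48 CPM at 36 h, from 33 to 74 counts in a library. From 18 h on both libraries of each time lay above both untreated ones. The log2 fold change was 0.64 ± 0.215 (SE) at 24 h and 0.84 ± 0.22 at 36 h, with edgeR adjusted p of 0.0332 and 0.0033. DESeq2 called only the 36 h change (adjusted p of 0.0403, and 0.177 at 24 h). The 36 h call was lost without 0 h replicate 2 (0.66, adjusted p of 0.0615) and without 36 h replicate 1 (0.70, adjusted p of 0.0597). The 24 h call was lost without 0 h replicate 2 and without either 24 h library, at log2 fold changes of 0.46, 0.62 and 0.65 and adjusted p of 0.259, 0.149 and 0.107.

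*Snai2* rested on very few reads. Its libraries held 4 and 5 counts at 0 h, 7 and 7 at 12 h, 11 and 7 at 18 h, 13 and 17 at 24 h, and 10 and 19 at 36 h. All 8 treated libraries lay above both untreated ones, yet the 36 h replicates differed by 1.20 on the log2 scale, the widest replicate gap of any member. The fitted log2 difference from 0 h was 1.65 ± 0.55 (SE) at 24 h and 1.93 ± 0.54 at 36 h. It is given as a description, since a gene admitted by the libraries where it is high had to differ. Without 36 h replicate 2 the 36 h value was 1.26, with an edgeR adjusted p of 0.186, and DESeq2 gave *Snai2* no adjusted p.

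*Zeb1* stood at 15.6 and 15.6 CPM at 0 h, 16.6 and 16.0 CPM at 12 h, 16.2 and 15.2 CPM at 18 h, 13.5 and 14.6 CPM at 24 h, and 15.8 and 15.1 CPM at 36 h. The 24 h libraries were below all others and the 36 h libraries were back among the untreated ones. Its log2 fold change was -0.15 ± 0.08 (SE) at 24 h and -0.01 ± 0.08 at 36 h (edgeR adjusted p of 0.193 and 0.927). *Zeb2* stood at 4.09 and 4.26 CPM at 0 h and at 5.11 and 4.87 CPM at 36 h, with 3.43 and 4.91 CPM at 18 h between them. Its log2 fold change at 36 h was 0.26 ± 0.16 (SE), with a 95% interval of -0.07 to 0.58 and an edgeR adjusted p of 0.223.

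**Figure D3:**
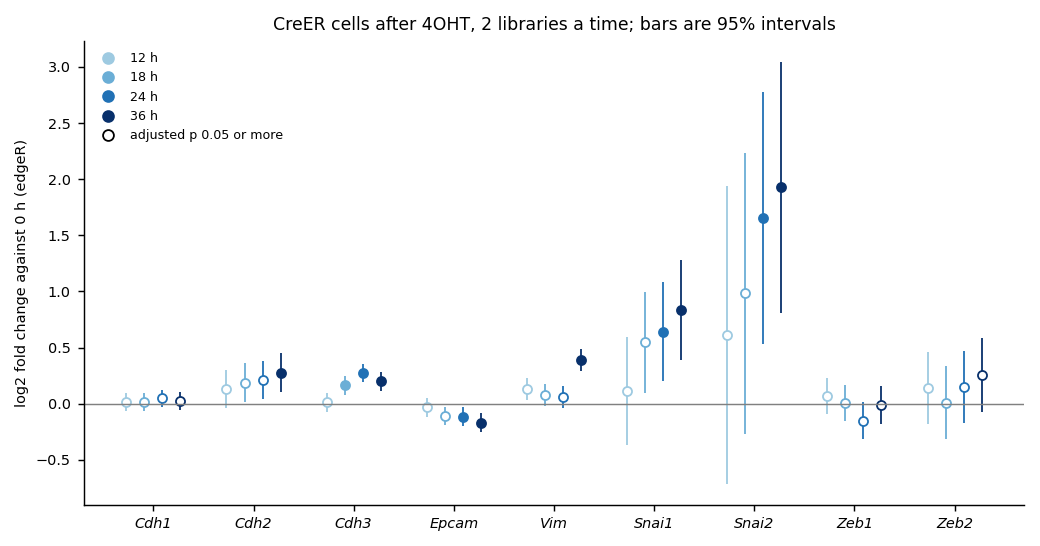
Log2 fold changes of the 9 genes at 12, 18, 24 and 36 h of 4OHT against 0 h in CreER cells (edgeR, 2 libraries a time, bars are 95% intervals, filled points have an adjusted p under 0.05). Snai2 and Snai1 have the largest values with wide intervals, and Cdh1 has an interval of -0.06 to 0.10 at 36 h.

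The same genes were read in O4AID cells, where the OCT4 fusion protein is broken down directly. With 1 library a time there is no replicate check and no p-value. The ratio of scaled counts to the 0 h library is given with an exact binomial 95% interval, which covers counting error only. That interval does not measure the spread between libraries, since each time has 1. The reads also carry no molecular identifiers, so copies of the same molecule cannot be told apart. A gene is counted as past 2-fold when the ratio is at least 2-fold and that interval leaves out no change. At 1.5 h 1 of the 9 members was past 2-fold, beside 2.36% of all genes, and at 6 h 0 members were, beside 4.83%. At 10 h 2 members were past 2-fold and at 24 h 4 were, beside 7.32% and 16.1% of all genes. All of these were higher than at 0 h. The median log2 ratio of the 9 members at 24 h was 0.60, and that of all genes was 0.015. The same rule between the 2 replicates of each CreER time was passed by 0.641% to 0.965% of genes, among them 1 member, *Snai2* at 36 h.

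*Cdh3* had the largest ratio at 24 h. Its level was 3.20 CPM at 0 h, 3.35 CPM at 1.5 h, 5.05 CPM at 6 h, 6.10 CPM at 10 h and 10.5 CPM at 24 h, from 151 to 499 counts. Each later library was higher than the one before. The 24 h ratio was 3.28-fold (2.72 to 3.96), and the step from 10 to 24 h alone had a log2 ratio of 0.78 (0.56 to 1.00). Even at 24 h the level was far below the 132 to 163 CPM of the CreER libraries.

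*Cdh1* was lower in every treated library. It stood at 278 CPM at 0 h, 266 CPM at 1.5 h, 229 CPM at 6 h, 209 CPM at 10 h and 230 CPM at 24 h. The lowest level was at 10 h, at 0.75-fold of 0 h (0.73 to 0.77), and at 24 h it was 0.83-fold (0.81 to 0.85). *Cdh2* held only 14 to 29 counts in a library. Its level was 0.36, 0.31, 0.36, 0.71 and 0.55 CPM over the 5 times, and only the 10 h interval, 1.05-fold to 3.82-fold, left out no change.

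The cadherin make-up per length moved with *Cdh3*. *Cdh1* held 98.7%, 98.6%, 97.7%, 96.9% and 95.4% of the summed RPKM of the 3 cadherins, in order of time. *Cdh3* held 1.18%, 1.30%, 2.25%, 2.95% and 4.52%, and *Cdh2* never more than 0.19%. By reads instead of per length the *Cdh3* share was 1.14% at 0 h (Wilson 95% interval 0.97 to 1.33) and 4.34% at 24 h (3.98 to 4.72).

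*Epcam* was highest at 24 h. It stood at 20.8 CPM at 0 h, 22.7 CPM at 1.5 h, 20.4 CPM at 6 h, 20.7 CPM at 10 h and 29.9 CPM at 24 h. The 24 h ratio was 1.44-fold (1.33 to 1.56), and the 1.5 h ratio was 1.09-fold, with a log2 interval of 0.003 to 0.259. *Vim* was at 93.0 CPM at 0 h, 87.4 CPM at 1.5 h, 124 CPM at 6 h, 177 CPM at 10 h and 205 CPM at 24 h. Its ratio was 1.33-fold (1.28 to 1.39) at 6 h, 1.90-fold (1.83 to 1.98) at 10 h and 2.21-fold (2.13 to 2.29) at 24 h. Of the members past 2-fold at 24 h, *Vim* had the most reads, 3911 to 9788 counts in a library.

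*Snai1* was the only member past 2-fold at 1.5 h. Its libraries held 22, 61, 35, 64 and 63 counts in order of time, or 0.47, 1.36, 0.85, 1.56 and 1.32 CPM. The 0 h library was the lowest and the 6 h library lay between it and the others. The ratio was 2.93-fold (1.77 to 5.01) at 1.5 h, 3.35-fold (2.04 to 5.72) at 10 h and 2.84-fold (1.72 to 4.84) at 24 h. Every ratio rests on the 22 counts of the 0 h library, and with the 1.5 h library as reference the log2 ratio was -0.05 at 24 h. *Snai2* held 32 to 46 counts and stood at 0.70, 0.96, 1.11, 0.78 and 0.92 CPM, and the intervals of its 4 ratios all included no change.

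The Zeb genes changed in opposite directions, and their levels came closer. *Zeb1* stood at 58.0 CPM at 0 h, 53.2 CPM at 1.5 h, 50.1 CPM at 6 h, 49.7 CPM at 10 h and 36.8 CPM at 24 h, with each library below the one before. Its 24 h ratio was 0.64-fold (0.60 to 0.67), not past 2-fold. *Zeb2* held 33, 59, 36, 64 and 89 counts, or 0.70, 1.32, 0.87, 1.56 and 1.87 CPM. Its ratio was 2.24-fold (1.45 to 3.51) at 10 h and 2.67-fold (1.77 to 4.12) at 24 h. With the 1.5 h library as reference, the *Zeb2* log2 ratio at 24 h was 0.50. The ratio of *Zeb1* to *Zeb2* per length was 164 at 0 h and 38.9 at 24 h.

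**Figure D4:**
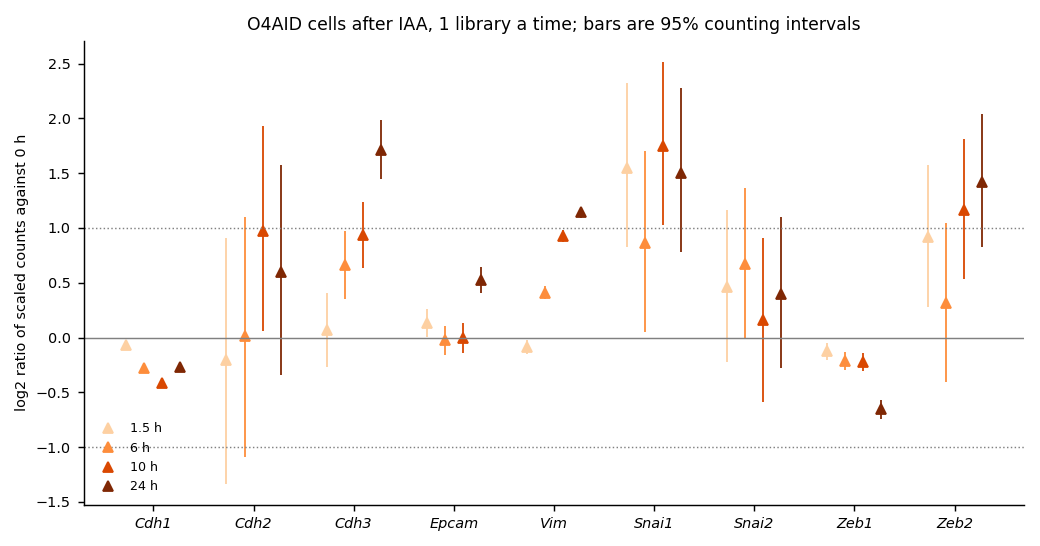
Log2 ratios of scaled counts of the 9 genes at 1.5, 6, 10 and 24 h of IAA against 0 h in O4AID cells (1 library a time, bars are 95% counting intervals, dotted lines mark 2-fold). Cdh3 and Vim are higher at each time from 6 h, Zeb1 and Cdh1 lie below 0, and Cdh2, Snai1, Snai2 and Zeb2 have wide intervals.

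At 24 h, the time both series share, the values stand side by side without a test of their difference, since the routes differ in line, agent and speed. The log2 change was 0.05 in CreER and -0.27 in O4AID for *Cdh1*, 0.27 and 1.71 for *Cdh3*, -0.12 and 0.525 for *Epcam*, and 0.06 and 1.14 for *Vim*. It was 0.64 and 1.505 for *Snai1*, 1.65 and 0.40 for *Snai2*, -0.15 and -0.66 for *Zeb1*, 0.15 and 1.42 for *Zeb2*, and 0.21 and 0.60 for *Cdh2*. *Epcam* and *Cdh1* had opposite signs in the 2 series.

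Around the cadherins, 7 of 11 catenin and junction genes were called in CreER cells at 36 h, 6 higher and 1 lower, with a median log2 fold change of 0.14. For this and the following lists, the share of all genes called was 36.6% in CreER cells at 36 h, and the share past 2-fold was 16.1% in O4AID cells at 24 h. *Ctnna1*, which links catenins to actin, rose from 655 to 836 CPM (log2 fold change 0.35, edgeR adjusted p of 1.51e-08). *Pard3*, a polarity protein of junctions, rose by 0.34 on the log2 scale (adjusted p of 4.06e-07). *Nectin3*, a calcium-independent adhesion molecule, fell by 0.57 (adjusted p of 5.00e-09). In O4AID cells at 24 h 1 of 10 measured was past 2-fold: *Jup*, which encodes plakoglobin, was lower at a log2 ratio of -1.41, from 103 to 38.9 CPM, and the list's median was -0.05.

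Of 11 other cadherins, 8 had enough reads in CreER cells and 2 were called at 36 h. *Cdh4* (R-cadherin) rose by 0.54 on the log2 scale, from 5.93 to 8.57 CPM (edgeR adjusted p of 0.000672), and *Cdh10* fell by 1.02, from 2.38 to 1.14 CPM (adjusted p of 0.00149). In O4AID cells 3 were measured, and *Cdh4* went from 594 to 139 counts, a log2 ratio of -2.11. The medians were 0.22 and 0.90, over 8 and 3 genes.

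Around *Epcam*, 5 of 6 associated genes, among them membrane proteases and their inhibitors, were called higher in CreER cells at 36 h and none lower (median 0.53). *Prss8*, the membrane protease prostasin, rose from 22.3 to 48.0 CPM (log2 fold change 1.10, edgeR adjusted p of 1.38e-12). In O4AID cells *Prss8* was the only one of 5 past 2-fold, from 6.18 to 34.6 CPM (log2 ratio 2.49), and the median was 0.39. *Epcam* itself fell in CreER cells, as given above.

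Of 8 epithelial regulators, 6 were called in CreER cells at 36 h, 4 higher and 2 lower (median 0.31), beside 36.6% of all genes. The epithelial transcription factors *Elf3* (36.2 to 76.9 CPM) and *Grhl3* (27.8 to 56.8 CPM) rose, with log2 fold changes of 1.09 and 1.03 and edgeR adjusted p of 9.93e-14 and 1.30e-13. *Grhl2* (66.0 to 51.0 CPM) and *Ovol2* (6.05 to 3.74 CPM) fell, by 0.37 and 0.68 on the log2 scale (adjusted p of 3.48e-06 and 0.000655). In O4AID cells 2 of 7 were past 2-fold (median 0.20). The splicing regulator *Esrp2* was higher, from 10.6 to 22.0 CPM, and *Ovol1* was lower, from 18 to 3 counts. *Ovol1* reached the required mean of 10 counts only through the 0 h library, so its value is no support for a fall. *Esrp1*, also a splicing regulator of epithelia, held 2 counts in the untreated O4AID library and stood at 91.0 CPM in untreated CreER cells.

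Of 8 other EMT transcription factors, 5 had enough reads in CreER cells and only *Gsc*, a homeobox gene of the gastrula, was called at 36 h. It rose from 0.57 to 1.18 CPM (log2 fold change 1.06, edgeR adjusted p of 0.0114), and the median was 0.14. In O4AID cells none of 6 was past 2-fold (median -0.39). *Twist1*, a classical EMT factor, stood at 2.02 and 2.02 CPM at 0 and 36 h in CreER cells and at 1.65 and 1.45 CPM at 0 and 24 h in O4AID cells.

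Of 10 mesenchymal products, 9 were tested in CreER cells and 7 called at 36 h, 6 higher and 1 lower (median 0.49). *Tgfbi*, an extracellular matrix protein, rose from 2.75 to 4.97 CPM (log2 fold change 0.87, edgeR adjusted p of 0.000106), and *Tagln*, an actin-binding protein of smooth muscle, from 53.5 to 85.4 CPM (0.67, adjusted p of 1.48e-08). *Nes* fell by 0.16 (adjusted p of 0.0204). In O4AID cells 3 of 8 were past 2-fold at 24 h: *Tgfbi* (26.7 to 85.5 CPM) and *Mmp9* (23 to 47 counts) were higher and *Mmp2* (7.18 to 2.29 CPM) was lower, with a median of 0.62. *Fn1*, which encodes fibronectin, had a log2 value of -0.02 in CreER cells (adjusted p of 0.788) and of -0.62 in O4AID cells.

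In the TGF-beta pathway, an inducer of EMT in many epithelia, 5 of 8 genes were called in CreER cells at 36 h, 4 higher and 1 lower (median 0.39). The receptor gene *Tgfbr2* rose from 2.31 to 5.45 CPM (log2 fold change 1.23, edgeR adjusted p of 3.99e-07) and the signal transducer *Smad3* from 31.3 to 69.7 CPM (1.16, adjusted p of 4.92e-14). The ligand gene *Tgfb1* fell by 0.59 (adjusted p of 0.0101). In O4AID cells 2 of 8 were past 2-fold (median 0.38). The ligand gene *Tgfb3* was higher, from 50 to 171 counts, and *Tgfb2* lower, from 26 to 6 counts. *Tgfb2* reached the required mean of 10 counts only through the 0 h library, so its value is no support for a fall. The medians of all genes were 0.01 in CreER cells at 36 h and 0.015 in O4AID cells at 24 h.

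**Figure D5:**
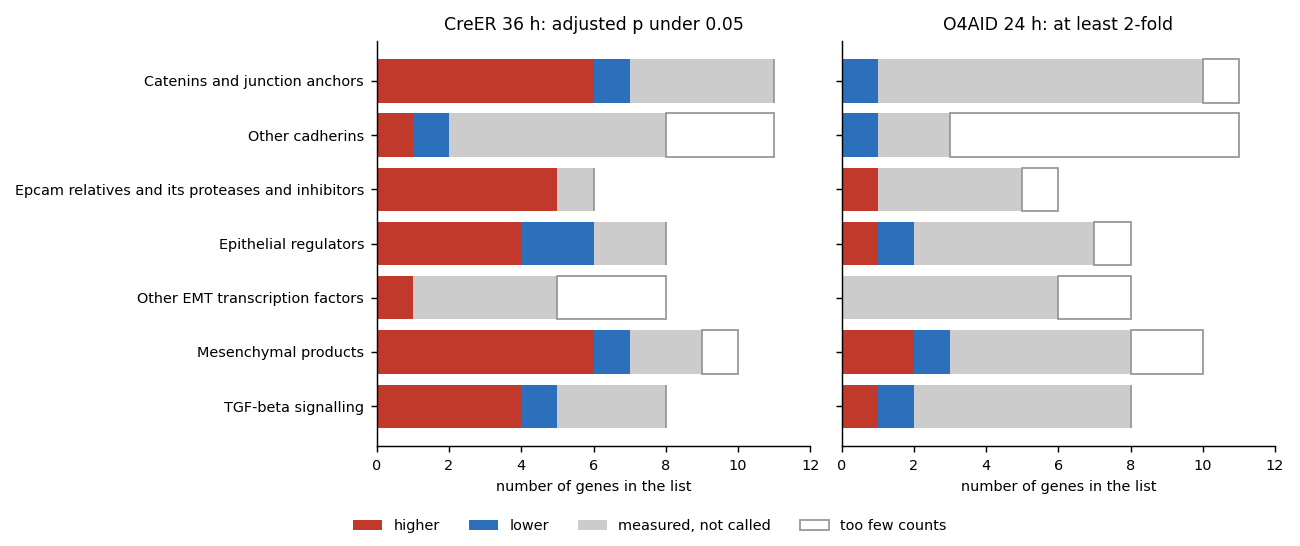
Number of genes in each of the 7 surrounding lists that were called in CreER cells at 36 h (left, edgeR adjusted p under 0.05) or past 2-fold in O4AID cells at 24 h (right), split into higher, lower, measured but not called, and too few counts. Of the Epcam-related genes 5 of 6 are called in CreER cells, and none of the other EMT factors is past 2-fold in O4AID cells.

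Markers of other cell types moved in the same libraries, and their part in the results above was not tested. In bulk RNA a change in the number of cells of a type and a change per cell cannot be told apart. The 9 trophectoderm markers were all called higher in CreER cells at 36 h. Among them *Elf5* (0.30 CPM at 0 h and 1.34 CPM at 36 h), like *Snai2*, passed the filter only through treated libraries. Its call is therefore no support for a rise. The 9 summed to 336 to 350.1 CPM at 0 h and 684 to 723 CPM at 36 h. In O4AID cells at 24 h 6 of 9 were past 2-fold higher (111 to 172 CPM summed). The 7 primitive endoderm markers summed to 14.8 to 17.0 CPM at 0 h and 37.5 to 38.1 CPM at 36 h in CreER cells. Of the 6 tested there, 3 were called at 36 h, 2 higher and 1 lower (median log2 fold change 0.61). In O4AID cells the 7 markers summed to 9.99 CPM at 0 h and 43.9 CPM at 24 h, where 5 of 6 measured were past 2-fold higher. Among these, *Foxa2* (6 to 25 counts) reached the required mean of 10 counts only through the 24 h library. Its value is therefore no support for a rise. The 6 markers of primed epiblast and early mesoderm went from 65.4 to 67.3 CPM down to 35.2 to 35.6 CPM in CreER cells at 36 h, and from 6.75 to 4.05 CPM in O4AID cells. ESC markers went from 3873 to 3970 CPM summed down to 3365 to 3448 CPM in CreER cells at 36 h. There 8 of the 10 were called, 6 lower and 2 higher (median log2 fold change -0.16), beside 36.6% of all genes. In O4AID cells ESC markers went from 6461 to 1841 CPM at 24 h, where 9 of 10 were past 2-fold lower.

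Fibroblasts, which also express *Vim* and the Zeb genes, would show through 9 markers. These summed to 9.67 to 10.7 CPM at 0 h and 11.5 to 12.3 CPM at 36 h in CreER cells. In O4AID cells they summed to 42.0 CPM at 0 h and 39.1 CPM at 24 h, of which *Pdgfrb* alone was 37.3 and 36.4 CPM. The collagen gene *Col1a2* was called higher in CreER cells at 36 h (log2 fold change 1.01, edgeR adjusted p of 0.00387), the only one of 6 tested, and was past 2-fold higher in O4AID cells at 24 h (16 to 45 counts). *Col1a1* was past 2-fold lower in O4AID cells (162 to 34 counts), so 2 of 4 measured were past 2-fold there. *Col3a1*, *Dcn* and *Postn* held at most 3 counts in any O4AID library, and *Fap* at most 3 in any CreER library, where *Col3a1* reached 67 counts.

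Each member's closest genes over the 10 CreER libraries were taken by Pearson r of log2(CPM + 1) among 15118 genes with a mean of at least 1 CPM. These are descriptions, since the libraries share times and depth. For *Epcam* they were *Ythdc2* (r = 0.988), *Grsf1* (0.987) and *Runx1t1* (0.974), and for *Cdh3* they were *Slc26a9* (0.983), *Tmem191c* (0.979) and *Top3b* (0.974). For *Vim* they were *Rad51d* (0.974), *Atp6v1d* (0.969) and *Dnajc5* (0.969), and for *Cdh2* *Fndc10* (0.953), *Pheta1* (0.950) and *Hoxb9* (0.944). For *Snai1* they were *Ticam1* (0.978), *Ticrr* (0.976) and *Uhrf1bp1* (0.960), and for *Snai2* *Btbd6* (0.967), *Wnt7a* (0.964) and *Mus81* (0.963). *Cdh1*, *Zeb1* and *Zeb2*, which were not called at any time, had *Gm43587* (0.949), *Rbmxl2* (0.917) and *Duxf3* (0.926) in first place.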

How the data were processed

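RNA depleted of ribosomal RNA (Ribo-Zero) was made into strand-specific paired-end libraries from 10 CreER and 5 O4AID samples. Per the labels and the study's methods, the authors trimmed reads with Trim Galore 0.1.4, aligned them to GRCm38/mm10 with TopHat2 2.1.0 and deposited raw read counts per Ensembl gene from featureCounts 1.5.1. Strand and multimapping settings are not given in the sources used here. The authors' normalised matrix was not used. Of 48801 entries, 92 were spike-ins with 0 reads and 48709 were genes.

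Samples were grouped by line and time from the labels. CreER counts were tested with edgeR 4.0.16 in R 4.3.3 (TMM scaling, filterByExpr, robust quasi-likelihood fit of all 10 libraries, prior count 0.125, Benjamini-Hochberg adjustment, adjusted p under 0.05). Each time was compared with 0 h and with the time before it. O4AID counts, with 1 library a time, gave TMM-scaled ratios with exact (Clopper-Pearson) 95% intervals, over genes with a mean of at least 10 counts in the 2 libraries and with counts under 3 set to 3. The simulated replicates of NOISeq-sim, the study's own procedure, were not used. RPKM used the union of exons and TMM over 15 libraries. The scripts were tested on simulated data.

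The members and lists were chosen with earlier results of these data known. Of each surrounding list the text names up to 2 called rises and 2 called falls with the largest change in CreER cells at 36 h, and up to 2 higher and 2 lower genes past 2-fold in O4AID cells at 24 h. *Esrp1*, *Twist1*, *Fn1* and the fibroblast markers were named after their values were seen. A gene that this rule names among those around *Epcam* is not reported here. The alternatives were RLE and total-count scaling, other filters, DESeq2 1.42.0, fits of only the 4 libraries compared, a replicate block, and leaving out each library in turn. For O4AID they were total-count scaling, a pseudocount of 1, a minimum of 50 counts and the 1.5 h library as reference. Counts of replicates differed beyond sampling noise, so none was merged.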

Additional observations from a re-analysis of the deposited data

Results flagged for a closer look

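The values of *Epcam* and *Cdh1* had opposite signs in the 2 series at 24 h, the time they share. *Epcam* had a log2 fold change of -0.118 in CreER cells, where both 24 h libraries lay below both untreated ones, and a log2 ratio of 0.525 in the single O4AID pair. *Cdh1* had 0.046 in CreER cells, which did not pass edgeR's test (adjusted p of 0.441), and -0.271 in O4AID cells. The difference between the series was not tested, since O4AID has 1 library a time.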

How the results depend on the processing

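Outside the leave-outs, 132 values of single members were the same, 9 became weaker, 1 stronger, 15 moved and 3 reversed. For CreER values, the same meant an unchanged direction and side of the threshold. For O4AID ratios it meant an unchanged direction and a value within the counting interval, even on the other side of 2-fold. *Zeb2* at 10 h with log2(CPM + 1) was thus the same at 0.593, against 1.161. *Vim* at 24 h with total-count scaling moved, at 1.227 against 1.143. The 132 include the *Cdh3* shares and the O4AID ratios under a stricter count minimum, which leaves a ratio unchanged. The reversed values were *Cdh1* at 36 h with total-count scaling (-0.065), and *Snai1* (-0.045) and *Snai2* (-0.059) in O4AID cells at 24 h against the 1.5 h library. Members called in CreER cells went from 1 to 0 at 18 h with total-count scaling, from 4 to 1 at 24 h in DESeq2, and from 0 to 1 in the step from 12 to 18 h with at least 10 counts in every library or with only 4 libraries (1 each). From 24 to 36 h total-count scaling called 4 members in place of 1. It moved the median of all genes in that step to -0.10, and at 36 h it called 2696 of 7498 genes higher, against 3686 of 6948 with TMM.

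Genes called at 12 h numbered 222 with no filter (75 as reported). DESeq2 called 956 at 18 h (1616), 2553 at 24 h (4089), and 144, 152 and 1606 in the 3 steps (294, 257 and 2785). Only 4 libraries gave 774 from 12 to 18 h and 585 from 18 to 24 h, where no filter gave 398. In O4AID cells log2(CPM + 1) left 15, 165, 364 and 1198 genes past 2-fold at 1.5, 6, 10 and 24 h, and at least 50 counts left 48, 309, 591 and 1688 (413, 840, 1276 and 2866 as reported). Both left 0 members at 1.5 h and 0 at 10 h. At 24 h 2 members remained past 2-fold with log2(CPM + 1) and 2 with the 1.5 h reference. The causes were not tested.

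Leaving out each library gave 8 to 218 genes at 12 h, 582 to 2006 at 18 h, 2343 to 4509 at 24 h, and 48 to 435, 62 to 373 and 1491 to 3165 in the 3 steps. Members called ranged from 0 to 1 at 18 h, 1 to 4 at 24 h, 4 to 6 at 36 h and 0 to 1 from 12 to 18 h. The 36 h value ranged from -0.019 to 0.056 for *Cdh1* and from -0.048 to 0.016 for *Zeb1*. An arm left with 1 library was assumed to vary like the others.

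The replicate numbers did not pair the libraries (correlations of deviations from -0.021 to 0.048 over 10 pairs of times). With the replicate block 0, 1, 4 and 6 members and 89, 1677, 4139 and 6999 genes were called at 12, 18, 24 and 36 h, and no member's call changed. Depth limits *Snai2*, with 4 to 19 counts in a CreER library, and *Cdh2* in O4AID cells, with 14 to 29.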
